A study of Mus musculus with 12 samples.

Results

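Metformin-treated and untreated livers of mice carrying a constitutively active FoxO3 transgene were compared on one-colour expression arrays. The comparison takes 8 of the 12 arrays of the series by their titles: 4 treated and 4 untreated transgenic livers, each a biological replicate. The other 4 arrays are wild type control livers. They share in the estimate of the spread and serve as a reference. All animals were sampled at 7 weeks of age. Their stock mixed C57BL/6 with NMRI and was crossed back to C57BL/6 for at least 4 rounds. The LAP promoter, a hepatocyte-enriched promoter, drives the transgene in both groups compared, so the treated and untreated livers differ by label in metformin alone. There is no metformin-treated wild type group among these samples. The sources used here do not state the dose, route and duration of the treatment, the sex of the animals or the number of founder lines. Values are deposited log2 signals of 19938 genes, of which 14953 were bright enough to test by their mean over all 12 arrays. Differences are treated minus untreated on the log2 scale, ± the standard error of the fit, with limma's adjusted p. A gene is said to rise or fall only where that adjusted p was under 0.05.

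FoxO3 is a forkhead transcription factor of the insulin pathway. Insulin, through the kinase Akt, normally keeps FoxO proteins out of the nucleus, and constitutively active forms escape that control. In liver, FoxO proteins are known for switching on fasting genes such as Pdk4 and Irs2, brakes on the growth kinase complex mTORC1 such as Sesn3, and autophagy genes. Metformin is a biguanide that lowers glucose output by the liver. It is known to inhibit complex I of the mitochondrial respiratory chain and to activate the energy-sensing kinase AMPK. Xist is the long RNA that coats the inactive X chromosome and is made by female cells, while Eif2s3y, Kdm5d and Uty lie on the Y chromosome. Many liver genes for steroid, drug and fatty acid handling are also sex-biased, under the pattern of growth hormone release.

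The groups differed completely in these sex-chromosome transcripts. Xist lay at 4.45, 4.24, 4.70 and 4.32 in untreated replicates 1 to 4 and at 11.68, 11.92, 10.57 and 11.95 in treated replicates 1 to 4. Eif2s3y, a Y-linked translation factor gene, lay at 8.43, 8.83, 8.50 and 8.67 in the untreated livers and at 4.03, 3.77, 4.30 and 3.80 in the treated ones. Every untreated array thus had low Xist with Y-linked signal, and every treated array had high Xist without it. Kdm5d, a histone demethylase gene, was lower by -2.5 ± 0.59 (adjusted p = 0.00984) and Uty, also of a demethylase family, by -3.43 ± 0.88 (adjusted p = 0.015). Sry, the testis-determining gene, is not active in adult liver and did not pass the test (0.21 ± 0.16, adjusted p = 0.352). Among the wild type arrays, replicates 1 and 4 had high Xist (11.73 and 11.66) and replicates 2 and 3 low Xist (4.36 and 4.30). Within the 8 arrays compared, metformin and the sex-chromosome signal cannot be told apart. For that reason the same split inside the wild type group is printed beside many of the differences below. It is the mean of the 2 high-Xist arrays minus the mean of the 2 low-Xist arrays and is called the wild type split. Its absence beside a gene says nothing about its size. A second contrast tested the treated-minus-untreated difference minus this split and is called the difference beyond the split. It assumes that the sex-chromosome difference acts alike in wild type and transgenic livers.

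Foxo3 itself lay at 8.86, 8.60, 8.84 and 8.97 in the untreated livers and at 8.83, 9.11, 8.29 and 8.97 in the treated ones. The groups overlapped, and the difference was -0.02 (95% interval -0.36 to 0.33, adjusted p = 0.952). The wild type livers lay between 8.54 and 8.89, within the range of the transgenic arrays. The sources used here do not say whether this row of the array reads the RNA of the transgene. In each group 1 array stood apart. Untreated replicate 2 correlated more with the wild type arrays (mean r = 0.984 over the tested genes) than with the other untreated arrays (0.968). Its mean correlation with the treated arrays (0.971) was also above that with its own group. Treated replicate 3 had a mean correlation of 0.974 with its own group, against 0.987 to 0.989 for the other treated arrays. Among the 139 genes named below, 136 were called. Leaving out untreated replicate 2 ended 1 of those calls, and leaving out treated replicate 3 ended 3 of them. Other single arrays ended more, up to 9 without treated replicate 4 and 8 without untreated replicate 3. The calls that were lost are given beside the genes.

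Treated and untreated transgenic livers differed widely. Of the 14953 genes tested, 3695 passed (24.7% of them), with 1583 higher in treated livers (10.6%) and 2112 lower (14.1%). The 4 treated arrays lay wholly above or below the 4 untreated ones for 3229 genes (21.6%), 1485 of them higher (9.93%) and 1744 lower (11.7%). The median difference over all tested genes was -0.01. Quantile normalization gave 1833 rising and 1795 falling, which moves the share of higher calls from 42.8% to 50.5%. The number of calls ranged from 2419 without untreated replicate 3 to 4828 without untreated replicate 2, and was 2354 when only the 8 arrays compared entered the fit. Of the 3695 called genes, 2478 (67.1%) had a wild type split of less than 0.25 times the treatment difference in size. A further 485 (13.1%) had a split of the same sign and 0.25 to 0.5 times the size, and 201 (5.44%) had one of the same sign and at least 0.5 times the size. The split ran the other way by more than 0.25 times the difference for 531 called genes (14.4%). These shares come from a fit with a single mean for all wild type livers, so a split between them widens the estimated spread. Genes that split by Xist are therefore called less easily. For Eif2s3y the standard error was 1.02 in this fit and 0.23 beyond the split. With 4 means, parting the wild type livers by Xist, 3425 genes were called, 3370 of them among the 3695. Of the 502 called genes that differed at least 2-fold, 237 rose and 265 fell. Among these, 382 had a split under 0.25 times the difference and 44 a like-signed split of at least 0.5 times it.

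The contrast beyond the split called far fewer genes: 19 of 14953 (0.127%), with 7 higher (0.0468%) and 12 lower (0.0803%), while 2588 genes had an unadjusted p under 0.05 in limma. It rests on 2 against 2 wild type arrays, which makes its standard errors larger. It is also easily moved by single arrays. The count was 1334 without untreated replicate 2 and 350 without treated replicate 3, both including all 19 genes. It was 5 without untreated replicate 3 or treated replicate 1, 2 without wild type replicate 3, 1 without treated replicate 2, and 0 without untreated replicate 4, treated replicate 4 or wild type replicate 1, 2 or 4. With 0 calls, limma still gave between 1601 and 2292 genes an unadjusted p under 0.05.

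**Figure D1:**
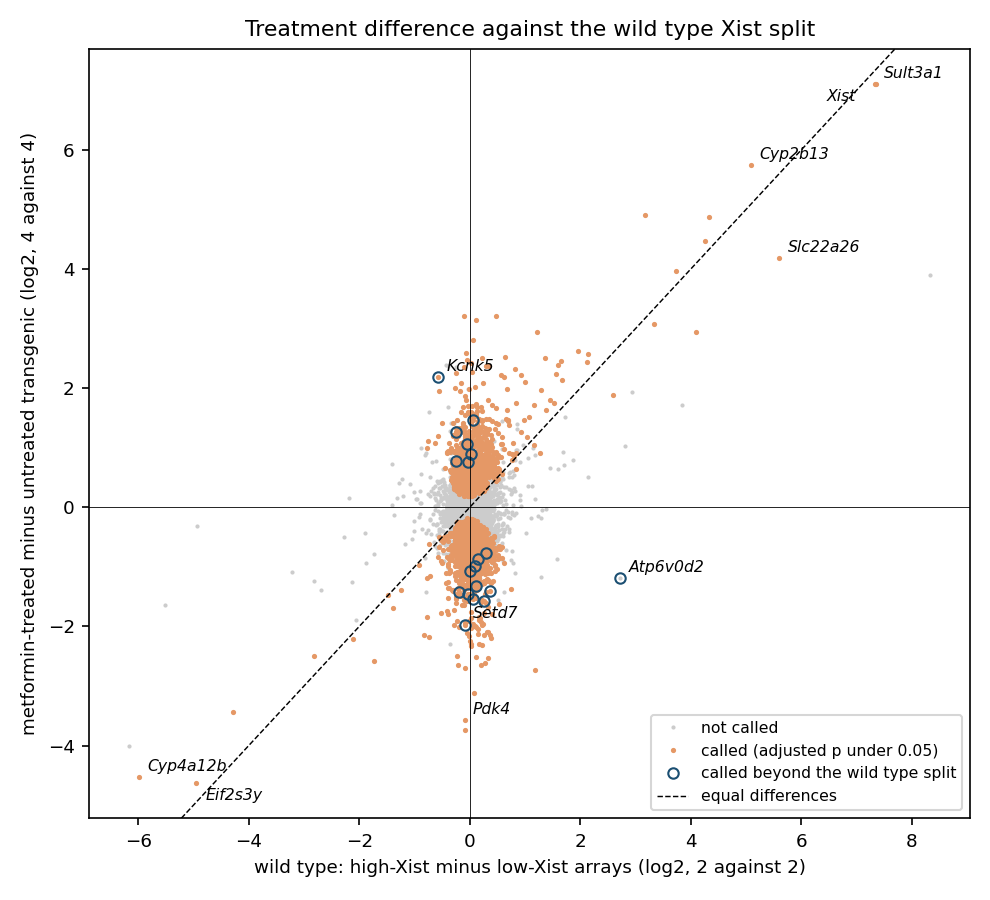
Each point is 1 of 14953 genes; the vertical axis is the treated-minus-untreated difference (log2, 4 against 4 arrays) and the horizontal axis the high-Xist minus low-Xist difference inside the wild type group (log2, 2 against 2 arrays). Xist, Sult3a1, Cyp2b13 and Eif2s3y lie near the dashed line of equal differences, while most called genes stand in a column around a wild type split of 0, and the 19 circled genes passed beyond the split.

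A set of 18 genes passed both contrasts in the same direction, 11 falling and 7 rising, and in all 18 the treated and untreated arrays did not overlap. The promoters of 4 of them are shown here because they hold a match to one of the motifs searched, the FoxO-type letters GTAAACA or the spaced repeat TTCNNNGAA, which is the core read by STAT5, the growth hormone-responsive factor. Both strands were searched in the window from 250 bases before to 50 bases after the start site, with RefSeq sequence on GRCm38.p6. Capitals mark the match. Windows are 300 bases on the minus strand of the chromosome, printed 5′ to 3′ in the direction of the gene: Setd7 at chr3:51560774-51561073, Ibtk at chr9:85749285-85749584, Rbbp9 at chr2:144550810-144551109 and Foxa1 at chr12:57546062-57546361.
Setd7: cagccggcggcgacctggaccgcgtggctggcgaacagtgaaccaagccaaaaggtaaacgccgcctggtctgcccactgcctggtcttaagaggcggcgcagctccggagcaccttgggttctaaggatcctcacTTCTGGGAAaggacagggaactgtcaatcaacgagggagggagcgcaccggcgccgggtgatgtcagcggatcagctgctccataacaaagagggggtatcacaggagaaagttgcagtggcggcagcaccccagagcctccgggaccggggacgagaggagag
Ibtk: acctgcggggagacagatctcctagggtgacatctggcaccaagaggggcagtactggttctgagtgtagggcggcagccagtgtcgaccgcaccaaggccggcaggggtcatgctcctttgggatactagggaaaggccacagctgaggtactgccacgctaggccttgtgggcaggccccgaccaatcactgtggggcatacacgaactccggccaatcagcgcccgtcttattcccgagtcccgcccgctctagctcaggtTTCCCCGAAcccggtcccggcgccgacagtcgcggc
Rbbp9: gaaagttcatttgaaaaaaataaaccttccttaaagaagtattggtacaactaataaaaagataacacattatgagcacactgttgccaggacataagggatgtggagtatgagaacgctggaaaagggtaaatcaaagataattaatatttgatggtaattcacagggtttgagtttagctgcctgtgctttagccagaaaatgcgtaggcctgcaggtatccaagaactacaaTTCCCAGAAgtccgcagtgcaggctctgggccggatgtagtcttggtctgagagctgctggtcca
Foxa1: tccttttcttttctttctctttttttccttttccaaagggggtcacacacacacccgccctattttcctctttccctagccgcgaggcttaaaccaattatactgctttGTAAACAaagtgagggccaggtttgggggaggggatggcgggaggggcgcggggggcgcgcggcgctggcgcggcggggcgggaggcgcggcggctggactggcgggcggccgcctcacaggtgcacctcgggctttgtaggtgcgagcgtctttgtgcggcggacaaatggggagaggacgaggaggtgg
The match begins at base -114 from the start site in Setd7, 15 in Ibtk, -15 in Rbbp9 and -141 in Foxa1. Of the 18 genes, 16 had a promoter entry, 3 of them with TTCNNNGAA and 1 with GTAAACA. Of all tested genes with a promoter entry, 8.14% had TTCNNNGAA and 3.26% GTAAACA in at least 1 promoter, and of their promoters 6.83% and 2.69% did. Among promoters of genes that rose the shares were 6.96% and 2.6%, and among those of genes that fell 6.59% and 3.11%. Over every promoter in the table they were 8.3% and 3.65%. The 2 motifs do not overlap each other. A match is a description of the letters and no evidence of binding.

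Among the 11 genes that fell, Setd7, a lysine methyltransferase of histones and other proteins, had the largest difference. It lay at 8.53, 8.53, 8.47 and 8.44 in the untreated livers and at 6.72, 6.70, 6.16 and 6.53 in the treated ones, a 3.91-fold lower level (-1.97 ± 0.12, adjusted p = 1.53e-05, and -1.88 ± 0.22 beyond the split, adjusted p = 0.0195). The wild type arrays lay between 6.71 and 7.10, at the upper edge of the treated group or just above it, and far below the untreated one. Foxa1, a pioneer factor that opens chromatin at liver genes, lay at 9.69, 9.31, 9.65 and 9.51 without treatment and at 8.18, 8.23, 7.90 and 8.18 with it. All treated values were also below the lowest wild type value of 8.50. Its difference was -1.42 ± 0.11 (adjusted p = 7.03e-05). Sun2, which ties the nuclear membrane to the cytoskeleton, fell less, by 0.76 on the log2 scale ± 0.11, from 9.44 to 9.70 without treatment to 8.72 to 8.90 with it.

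The signalling genes in this group were Sesn3, Ipmk, Ibtk and Pip5k1c. Sesn3, a sestrin that restrains mTORC1 and a known FoxO target, lay at 10.33, 10.62, 10.44 and 10.05 in the untreated livers and at 9.06, 8.79, 8.93 and 9.03 in the treated ones. The treated values fell inside the wild type range of 8.66 to 9.41, and the difference was -1.40 ± 0.15 (adjusted p = 0.000303). Ipmk, an inositol phosphate kinase, lay at 10.99, 11.16, 11.59 and 11.15 without and at 9.88, 9.99, 9.80 and 9.94 with metformin (-1.32 ± 0.12, adjusted p = 0.000131). Ibtk, an inhibitor of Bruton's tyrosine kinase, moved from 10.38, 10.42, 10.67 and 10.43 to 9.43, 9.38, 9.37 and 9.46, and the wild type arrays lay just below at 9.20 to 9.38. Its wild type split was 0.00, so the difference of -1.07 was the same in both contrasts. Pip5k1c, which makes a membrane phosphoinositide, differed by -0.87 ± 0.09.

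The remaining genes that fell were Mtx3, Tmem62, Tacc2 and Wipf2. Mtx3, a metaxin of the mitochondrial outer membrane, lay at 8.47, 8.31, 8.09 and 8.28 in the untreated and at 6.94, 6.78, 6.82 and 6.83 in the treated livers (-1.45 ± 0.09, adjusted p = 1.53e-05, and -1.42 ± 0.17 beyond the split). Its wild type arrays lay at 6.54 to 6.81, next to the treated group. Tmem62, a transmembrane protein gene, differed by -1.57 ± 0.16 and Tacc2, a coiled-coil protein of the centrosome, by -1.54 ± 0.14. Wipf2, an actin regulator of the WASP-interacting family, differed in its wild type level: untreated livers lay at 7.67 to 7.82, wild type livers at 7.48 to 7.66 and treated livers at 6.54 to 6.94. Treated livers were therefore below both other groups for Wipf2, Foxa1, Pip5k1c and Tacc2, and close to wild type for Setd7, Sesn3, Ipmk, Ibtk and Mtx3.

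Of the 7 genes that rose, Gas2 had the smallest p beyond the split. It codes for a growth arrest protein that links actin and microtubules, and lay at 7.28, 7.32, 7.34 and 7.39 without and at 8.60, 8.42, 8.87 and 8.49 with metformin (1.26 ± 0.10, adjusted p = 9.58e-05, and 1.5 ± 0.17 beyond the split, adjusted p = 0.0195). The wild type range of 8.38 to 8.72 overlapped the treated one. Kcnk5, a background potassium channel, had the largest difference of the 7. It moved from 7.21, 7.48, 7.09 and 7.56 to 9.30, 9.72, 9.13 and 9.93, a 4.55-fold higher level (2.19 ± 0.24, adjusted p = 0.000303), with wild type values between 8.23 and 9.30.

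Of the 7, 4 stood above the wild type livers as well. Nmnat1, the nuclear enzyme of NAD synthesis, lay at 7.75, 7.93, 7.41 and 7.90 in the untreated, at 9.21, 9.07, 9.48 and 9.13 in the treated and at 8.15 to 8.37 in the wild type livers. The difference of 1.47 ± 0.12 had an adjusted p of 9.58e-05. Rbbp9, a serine hydrolase that binds the retinoblastoma protein, lay at 8.28, 8.51, 8.21 and 8.32 without and at 9.48, 9.36, 9.38 and 9.36 with metformin (1.07 ± 0.09), with wild type values of 8.66 to 8.91. Coq5, a methyltransferase of coenzyme Q synthesis, lay at 8.77 to 8.98 without and at 9.62 to 9.87 with metformin (0.90 ± 0.08), against 9.22 to 9.36 in wild type livers. Alg11, a mannosyltransferase of N-glycan assembly, moved from 8.82 to 8.92 to 9.56 to 9.69 (0.76 ± 0.07), against 8.87 to 9.08 in the wild type. Gin1, an integrase-like gene, rose by 0.78 ± 0.10. The calls of all 18 genes in the treated-against-untreated contrast held with any array left out, while those beyond the split did not, as the counts above show.

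The 19th gene called beyond the split behaved differently. Atp6v0d2, a subunit of the lysosomal proton pump, lay at 11.42, 9.41, 10.83 and 10.11 in the untreated livers and at 8.97, 9.31, 9.51 and 9.22 in the treated ones. The groups overlapped and the plain difference of -1.19 ± 0.65 did not pass (adjusted p = 0.2). In the wild type livers the high-Xist arrays lay at 8.22 and 8.27 and the low-Xist ones at 5.81 and 5.25, a split of 2.72 against the direction of the treatment difference. Beyond the split the value was -3.91 ± 0.60 (adjusted p = 0.0437). Every transgenic array, treated or not, was above every wild type array. This gene was singled out after its values were seen.

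**Figure D2:**
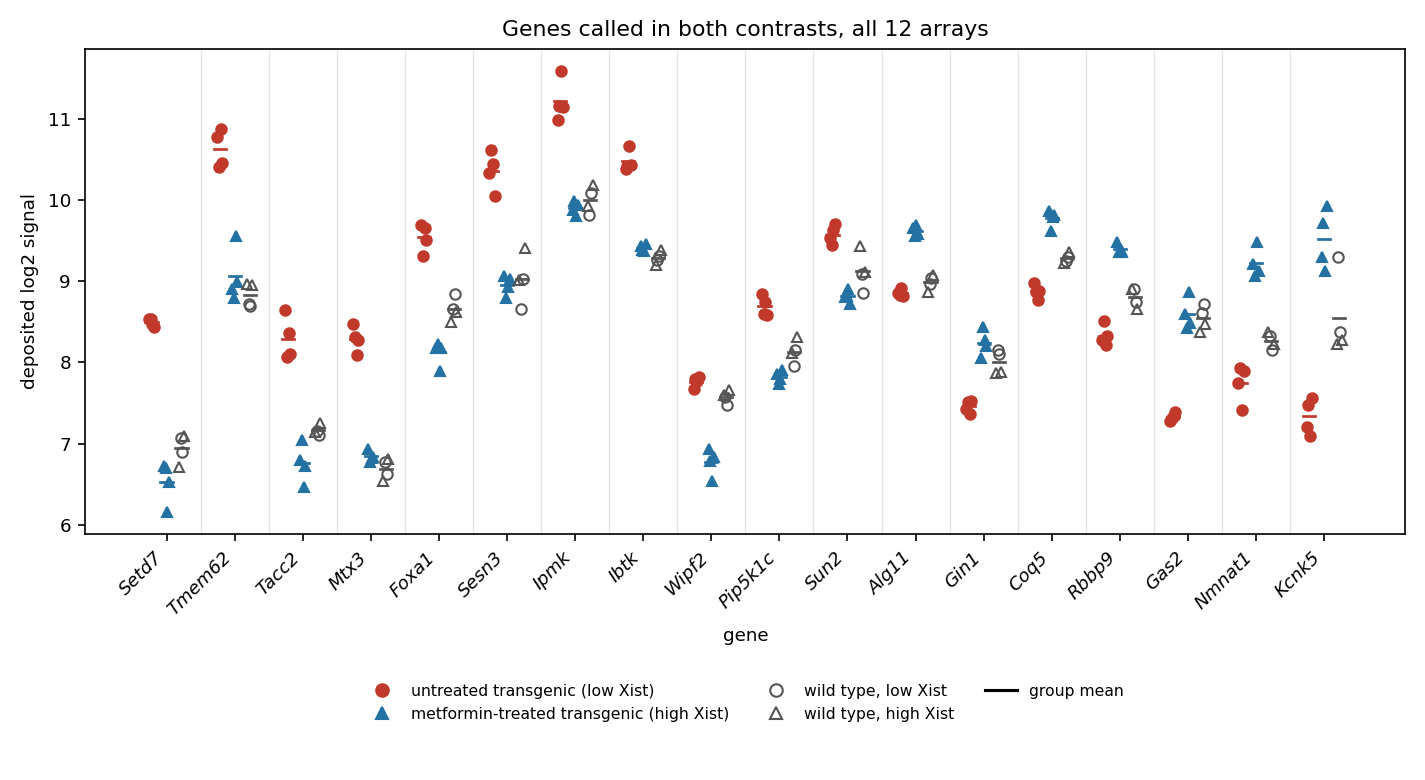
Deposited log2 signals (vertical axis) of the 18 genes called in both contrasts (horizontal axis), with 1 point per array, triangles for high-Xist and circles for low-Xist arrays, and bars at group means. The filled treated and untreated points are apart for each gene; Setd7, Mtx3 and Gas2 show treated livers close to wild type, and Nmnat1 and Alg11 show them above it.

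Another set of genes differed between the groups and had wild type arrays that split the same way. These were chosen as called genes without overlap and with a like-signed wild type split of at least 0.5 times the difference, the 8 largest in each direction. Sult3a1, a sulfotransferase, lay at 3.81, 3.68, 3.46 and 3.98 in the untreated and at 10.44, 10.82, 11.26 and 10.87 in the treated livers (7.11 ± 1.5, adjusted p = 0.00612). Its wild type arrays with high Xist lay at 10.30 and 11.01 and those with low Xist at 3.24 and 3.39, and the value beyond the split was -0.23 ± 0.33 (adjusted p = 0.755). Cyp2b13, a cytochrome P450, lay at 4.72, 4.01, 4.69 and 4.16 without and at 9.94, 10.32, 9.36 and 10.94 with metformin. The wild type values again formed a pair at 8.43 and 9.67 and a pair at 4.05 and 3.86. Hao2, a peroxisomal hydroxyacid oxidase, lay at 4.15 to 4.57 without and 7.99 to 9.63 with metformin (4.48 ± 0.95) and had a split of 4.27.

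Sult3a2 (4.88 ± 1.1), Cyp3a16 (4.92 ± 0.96), Cyp2a22 (3.97 ± 0.82) and the transporter gene Slc22a26 (4.18 ± 1.2) followed, with splits of 4.33, 3.17, 3.74 and 5.61. The Cyp3a16 split rested mostly on wild type replicate 4 (9.76). The other high-Xist wild type array lay at 5.07 and the low-Xist ones at 4.18 and 4.30. Sult3a1 and Sult3a2, and the members of the P450 families, are close paralogs whose probes could share signal. On the lower side, Cyp2d9 lay at 10.50, 11.26, 10.52 and 10.94 in the untreated and at 8.54, 8.51, 8.75 and 8.61 in the treated livers (-2.21 ± 0.46, split -2.12). The calcium-binding gene Cib3 differed by -2.58 ± 0.50 with a split of -1.73. Cyp4a12b lay at 7.16, 12.33, 8.81 and 10.49 without and at 4.59 to 5.59 with metformin, with a split of -5.99, and its difference of -4.52 ± 1.5 barely passed (adjusted p = 0.0438). Its adjusted p was between 0.05 and 0.0976 without untreated replicate 2, 3 or 4, wild type replicate 1 or any 1 treated replicate, 0.0571 with no filter on dim genes and 0.0652 with trend and robust eBayes.

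Susd4 (-1.69 ± 0.49, split -1.39) and the magnesium transporter gene Slc41a2 (-1.47 ± 0.44, split -1.47) completed the lower group beside the Y-linked genes. Susd4 lost its call without untreated replicate 4 (adjusted p = 0.069) or treated replicate 1 or 2 (0.0648 and 0.0629). Slc41a2 lost it without untreated replicate 1 or 3 (0.087 and 0.0909) or treated replicate 1, 2 or 4 (0.0573, 0.075 and 0.0779). Slc22a26 lost it without those same 5 arrays, with adjusted p between 0.0506 and 0.0602. None of these 16 genes passed beyond the split, where Uty had the smallest adjusted p at 0.114. The 16 were chosen for a large like-signed split, which that contrast subtracts, so this outcome was largely set by the choice.

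**Figure D3:**
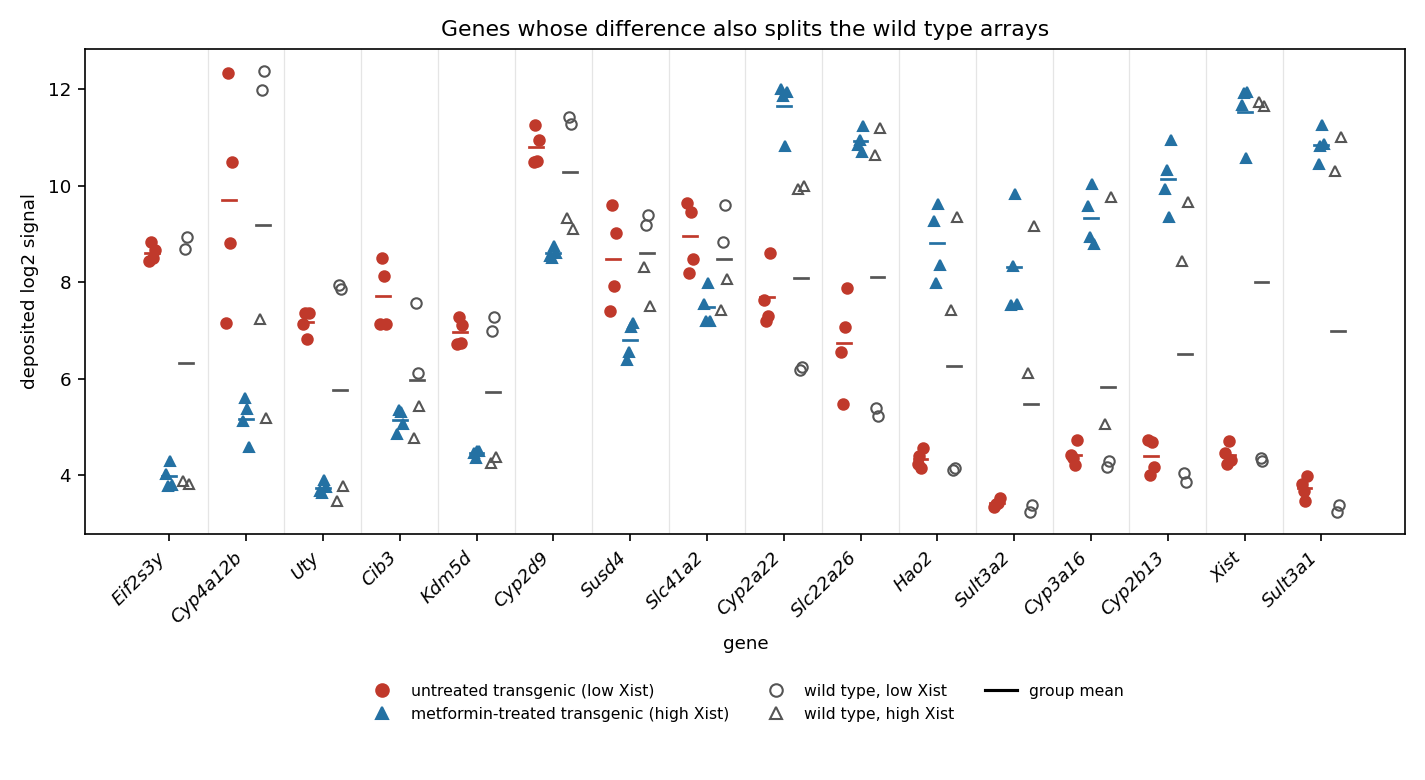
Deposited log2 signals (vertical axis) of the 16 genes whose difference also splits the wild type arrays (horizontal axis), 1 point per array, triangles for high-Xist and circles for low-Xist arrays, bars at group means. For Xist and Sult3a1 the open wild type triangles lie with the treated livers and the open wild type circles with the untreated livers; Cyp4a12b shows the widest spread among untreated livers.

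The sex-biased lists were written from general knowledge of mouse liver. Of 29 tested genes known as female-biased, 19 rose in treated livers and 0 fell (65.5% called, against 24.7% of all tested genes), with 0 lower also at an unadjusted p under 0.05. Their median difference was 1.64 and their median wild type split 1.38. Of the 19 that rose, 15 had a like-signed split of at least 0.5 times the difference. Hamp2, a hepcidin gene, lay at 10.61, 10.47, 9.74 and 10.01 without and at 11.94, 12.49, 12.44 and 12.49 with metformin (2.13 ± 0.40, split 1.68). Cux2, a transcription factor of the female liver program, rose by 1.43 ± 0.27 with a split of 0.47. That split came from wild type replicate 4 (7.34), while replicate 1 (6.32) lay just below both low-Xist wild type arrays (6.34 and 6.38). Of 28 male-biased genes, 5 fell and 2 rose (25% called, near the share of all genes). Their median difference was -0.11, while their median wild type split was -1.12. All 5 that fell had a split of the same sign and at least 0.5 times the size. Gstp1, a glutathione transferase, fell by 1.39 on the log2 scale ± 0.29 (split -1.24), and its adjusted p was 0.00587. Hsd11b1, the enzyme that reactivates glucocorticoids, rose by 1.47 ± 0.31 (split 0.22). The male-biased count that fell was 3 without untreated replicate 4 or treated replicate 1 or 2, and the count that rose was 4 without untreated replicate 2. With 4 means, parting the wild type livers by Xist, 7 male-biased genes fell and 2 rose, while 21 female-biased genes rose. With only the 8 arrays, 6 male-biased genes fell and 2 rose, while 20 female-biased genes rose. All genes tested gave 3425 and 2354 calls in these 2 fits.

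Drug-metabolising P450 genes and their regulators rose more often than they fell. Of 31 tested, 15 rose and 1 fell (51.6% called), with a median difference of 0.76 beside -0.01 over all genes and a median wild type split of 0.13. Of the 15 that rose, 4 had a like-signed split of at least 0.5 times the difference. Nr1i3, the drug-sensing receptor CAR, lay at 7.82, 9.42, 8.42 and 9.65 in the untreated and at 11.30, 11.43, 10.48 and 11.39 in the treated livers (2.32 ± 0.42, adjusted p = 0.00276, a 4.99-fold higher level). Its wild type values, at 9.27 to 10.78, reached into both groups, with a split of 0.83. Cyp2d26 rose by 0.38 ± 0.07 with a split of 0.00. The number that rose was 9 without untreated replicate 3 and 21 without untreated replicate 2.

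Genes known to carry metformin and those of AMPK, the kinase best known as its target, gave 3 calls. Of 4 tested genes for transporters of metformin or related cations, 1 rose (25%, near the 24.7% of all genes), Slc47a1, which exports metformin into bile. It lay at 9.75, 10.50, 9.26 and 10.23 without and at 10.87, 11.06, 10.80 and 11.11 with metformin, with no overlap (1.02 ± 0.22, adjusted p = 0.00634, split 0.33). Of 13 tested genes for AMPK subunits and upstream kinases, 1 rose and 1 fell (15.4% called). Stk11, the kinase LKB1 that activates AMPK, lay at 10.14 to 10.53 without and 9.73 to 10.03 with metformin (-0.46 ± 0.10, adjusted p = 0.00723). Prkaa2, a catalytic subunit of AMPK, differed by 0.40 ± 0.11 (adjusted p = 0.0237) with overlapping groups. Its call was lost, with adjusted p from 0.0571 to 0.0702, without untreated replicate 1, 3 or 4 or treated replicate 1, 2 or 4, and was 0.0536 with only the 8 arrays. The AMPK list had 2 lower without untreated replicate 1 and 2 higher without untreated replicate 2.

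Genes of mTORC1, the growth kinase complex, and of its brakes fell more often than they rose. Of 21 tested, 8 fell and 1 rose (42.9% called), and the median was -0.17. Castor2, of the arginine-sensor family, lay at 8.61, 7.52, 8.09 and 7.60 without and at 5.89, 5.82, 5.69 and 5.82 with metformin, a 4.44-fold lower level (-2.15 ± 0.19, adjusted p = 0.000101). The wild type livers lay between, at 6.15 to 6.46, and the split was -0.01. Sesn1, a sestrin like Sesn3, lay at 9.37, 9.38, 9.32 and 9.56 without and at 8.64, 8.32, 8.74 and 8.38 with metformin (-0.89 ± 0.12). Eif4ebp1, the translation repressor that mTORC1 inactivates, moved from 10.42, 10.29, 10.80 and 10.53 to 9.65, 9.66, 9.93 and 9.68 (-0.78 ± 0.11, adjusted p = 0.000654). Untreated and treated arrays did not overlap in any of these 3. The number that fell was between 7 and 9 with 1 array left out, and the count that rose was 2 without untreated replicate 4 or treated replicate 1 and 3 without treated replicate 3.

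FoxO targets also fell more often than they rose. Of 42 tested, 18 fell and 3 rose (50% called), with a median of -0.49 beside a median wild type split of 0.02. For 18 of the 21 called members the split was under 0.25 times the difference. Irs2, the insulin receptor substrate induced in fasting, lay at 9.87, 8.11, 9.90 and 9.58 in the untreated livers and at 7.35, 7.32, 6.73 and 7.31 in the treated ones, a 4.56-fold lower level (-2.19 ± 0.33, adjusted p = 0.00114). Untreated replicate 2 was nearest to the treated livers, and wild type values lay at 7.37 to 7.91. Cited2, a coactivator-binding protein, moved from 10.50, 9.69, 10.44 and 9.92 to 8.68, 8.39, 8.90 and 8.71 (-1.47 ± 0.17). Ddb1, a DNA damage-binding protein, differed by -0.83 ± 0.10. Falling members numbered 14 without untreated replicate 3 and 23 without untreated replicate 2. Rising members numbered 1 without untreated replicate 3 or treated replicate 2, and 5 without untreated replicate 2.

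In the insulin pathway itself, 9 of 22 tested genes fell and 0 rose (40.9% called), while 1 was higher and 12 lower at an unadjusted p under 0.05 in limma. The median was -0.34. Besides Irs2, Akt1, the kinase that phosphorylates FoxO proteins, moved from 9.79 to 10.29 without metformin to 9.41 to 9.58 with it (-0.53 ± 0.10, adjusted p = 0.00331). Pik3ca, the catalytic subunit of PI3 kinase, differed by -0.74 ± 0.14, and Ptpn1, a phosphatase that switches the insulin receptor off, by -0.56 ± 0.10. The members that fell thus include both forward components and a brake. The lower count was 8 to 11 with 1 array left out, and the count that rose was 1 without untreated replicate 2 and 2 without treated replicate 3.

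Of 14 tested genes of the IGF axis, 4 fell and 3 rose (50% called, beside 24.7% of all genes). Igfbp2, a circulating IGF-binding protein, lay at 12.69, 11.25, 12.53 and 12.38 without and at 10.18, 9.91, 10.93 and 9.45 with metformin (-2.09 ± 0.33, adjusted p = 0.00146, 4.26-fold lower). The wild type livers, at 9.83 to 10.39, fell within the treated range. Igf1r, the IGF receptor, fell by 1.03 on the log2 scale ± 0.21. Igfals, the subunit that stabilises IGF in serum, lay at 7.05, 9.22, 7.13 and 8.55 without and at 9.66, 9.49, 9.79 and 9.51 with metformin (1.62 ± 0.40, adjusted p = 0.0118). Its untreated values were scattered and all below the treated ones. Igfbp5 rose by 0.80 ± 0.19 with overlapping groups.

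Glucose-handling genes rose more often than they fell. Of 15 tested genes of glucose uptake and glycolysis, 6 rose and 2 fell (53.3% called), with a median of 0.23. Slc2a2, the hepatocyte glucose transporter GLUT2, lay at 10.50, 10.73 and 10.72 in untreated replicates 1, 2 and 4 (mean 10.49 with the lower replicate 3) and at 11.93, 11.74, 11.57 and 11.97 in the treated livers (1.32 ± 0.15, adjusted p = 0.000325). Treated livers were also above the wild type range of 11.24 to 11.35, and the split was 0.09. Gckr, the regulator of glucokinase, moved from 8.91, 10.26, 8.96 and 9.44 to 10.67, 10.71, 10.82 and 10.81 (1.36 ± 0.23). Slc2a9, a urate and hexose transporter, rose by 1.10 ± 0.22. Aldoc, an aldolase isoform uncommon in mature liver, fell by 1.16 on the log2 scale ± 0.17, from 9.46 to 10.13 without to 8.38 to 9.10 with metformin.

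Of 20 gluconeogenic genes, 5 rose and 1 fell (30% called). Gpt, an alanine transaminase, lay at 8.63, 9.24, 8.44 and 8.86 without and at 9.65, 9.76, 10.01 and 9.80 with metformin (1.01 ± 0.16). Slc37a4, the glucose-6-phosphate transporter of the endoplasmic reticulum, rose by 1.08 ± 0.23, and Fbp1, fructose bisphosphatase, by 0.36 ± 0.09 at near-uniform treated levels of 13.45 to 13.47. Crtc2, a coactivator of the glucagon response, lay at 9.37, 9.16, 9.48 and 9.09 without and at 8.60, 8.74, 8.39 and 8.48 with metformin (-0.72 ± 0.10, adjusted p = 0.0008), below the wild type range of 8.83 to 8.98. The higher count was 3 without untreated replicate 3 or treated replicate 1, 3 or 4, and 3 members fell without untreated replicate 2.

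At the entry of pyruvate into mitochondria, 5 of 12 genes rose and 3 fell (66.7% called). Pdk4, the kinase that shuts pyruvate dehydrogenase and a classic fasting gene, fell 11.9-fold. It lay at 12.28, 8.96, 12.67 and 12.17 without and at 8.06, 9.33, 6.99 and 7.43 with metformin (-3.57 ± 0.72, adjusted p = 0.00493). Untreated replicate 2 lay inside the treated range, so the groups overlapped through that 1 array, and the wild type livers lay at 7.16 to 8.07. The dehydrogenase subunits moved the other way. Pdhb lay at 7.82, 8.73, 7.67 and 8.15 without and at 9.02, 8.83, 9.46 and 9.03 with metformin (0.99 ± 0.21), Pdha1 rose by 0.60 ± 0.12 and Dld by 0.60 ± 0.12.

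In glycogen metabolism 5 of 17 genes rose and 2 fell (41.2% called, beside 24.7% of all genes). Ppp1r3b, which targets the activating phosphatase to glycogen, lay at 7.10, 6.85, 6.52 and 7.57 without and at 8.53, 9.26, 8.37 and 8.65 with metformin (1.69 ± 0.22, adjusted p = 0.000584). Wild type values of 8.32 to 8.68 overlapped the treated ones. Epm2a, laforin, the glycogen phosphatase, rose by 0.75 ± 0.13. Ppp1r3g, a related targeting subunit, lay at 9.41, 7.28, 11.04 and 11.11 without and at 7.17 to 7.87 with metformin (-2.31 ± 0.65, adjusted p = 0.0231), with untreated replicate 2 again among the treated values. Its adjusted p was 0.0734, 0.0643 and 0.0578 without untreated replicate 3 or 4 or treated replicate 4, and 0.0691 with only the 8 arrays. Ppp1r3d rose by 0.25 ± 0.07, a call lost without untreated replicate 1 or 3 (0.0529 and 0.0615) or treated replicate 2 or 4 (0.0562 and 0.0619), or with only the 8 arrays (0.0644). The list's count that rose was 3 without untreated replicate 1 or 3 or treated replicate 1, 2 or 4. Those that fell numbered 1 without untreated replicate 1, wild type replicate 1, 3 or 4 or treated replicate 1 or 2, and 0 without untreated replicate 3 or 4 or treated replicate 4.

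Lipid synthesis genes rose more often than they fell. Of 26 tested, 12 rose and 1 fell (50% called), with a median of 0.45 beside a median split of 0.08. Thrsp, a lipogenic nuclear protein, lay at 7.95, 10.27, 8.23 and 9.36 without and at 11.18, 11.40, 11.55 and 11.61 with metformin, a 5.58-fold higher level (2.48 ± 0.40, adjusted p = 0.00153). Wild type livers, at 11.14 to 11.68, lay with the treated ones. Agpat2, an acyltransferase of triglyceride synthesis, moved from 11.30, 11.61, 10.44 and 11.03 to 11.92, 12.11, 12.11 and 11.94 (0.93 ± 0.19). Dgat2, which makes triglyceride, rose by 0.65 ± 0.13, and the elongase Elovl2 by 0.48 ± 0.10 (split 0.27 for Elovl2). Those that rose numbered 8 to 14 with 1 array left out.

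Of 30 fatty acid oxidation genes, 6 rose and 1 fell (23.3% called, near the 24.7% of all genes). Acadm, the medium-chain dehydrogenase, moved from 11.68, 11.88, 11.62 and 11.94 to 12.22, 12.28, 12.30 and 12.17 (0.46 ± 0.09). Slc25a20, the carnitine carrier, rose by 0.64 ± 0.13 and the dehydrogenase gene Hadh by 0.35 ± 0.09 (split 0.23). Acot4, a peroxisomal thioesterase, rose by 1.76 ± 0.41 with a split of 0.84. Without untreated replicate 2, 12 rose and 3 fell. Without any other single array, 0 fell.

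Lipid uptake and storage genes went both ways, with 5 of 25 rising and 6 falling (44% called). Mfsd2a, a transporter of lysophospholipids, lay at 7.99, 7.21, 7.94 and 10.70 without and at 11.49, 12.27, 10.93 and 12.02 with metformin, a 9.3-fold higher level (3.22 ± 0.67, adjusted p = 0.00571). Wild type livers lay at 9.53 to 11.58. Vldlr, a lipoprotein receptor, rose by 1.72 ± 0.28 with a split of 1.17. Plin2, the main coat protein of hepatocyte lipid droplets, lay at 13.01, 12.43, 12.91 and 12.87 without and at 12.05, 12.22, 11.84 and 11.98 with metformin (-0.78 ± 0.12). Fabp4, a fatty acid-binding protein of macrophages and fat cells, fell by 0.98 on the log2 scale ± 0.12, and treated livers lay below the wild type range of 7.85 to 8.18. The count that rose was 3 without untreated replicate 3 or treated replicate 4 and 8 without untreated replicate 2. The count that fell was 3 without untreated replicate 3 or treated replicate 2.

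Bile acid genes rose more often than they fell. Of 29 tested genes of bile acid synthesis, transport and sensing, 12 rose and 1 fell (44.8% called), with a median of 0.40. A like-signed wild type split of at least 0.5 times the difference was found for 4 of the 12 that rose and for the 1 that fell. Cyp7a1, the rate-limiting enzyme of bile acid synthesis, lay at 11.24, 11.23 and 11.12 in untreated replicates 1, 2 and 4 (mean 11.15 with the lower replicate 3) and at 12.20, 12.12, 12.61 and 12.49 in the treated livers (1.21 ± 0.20, adjusted p = 0.00176). The wild type livers lay at 11.42 to 12.31, above the untreated group and reaching into the treated range. Nr1h4, the bile acid receptor FXR, moved from 9.37, 9.97, 9.17 and 9.49 to 10.31, 10.30, 10.42 and 10.38 (0.85 ± 0.16). Abcg5, a sterol exporter into bile, rose by 1.47 ± 0.25 with a split of 0.70. Ephx1, an epoxide hydrolase also linked to bile acid uptake, fell by 0.48 on the log2 scale ± 0.10 (split -0.30). The number that rose was 8 to 16 with 1 array left out, and 3 members fell without untreated replicate 2 and 2 without treated replicate 3.

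Cholesterol synthesis showed few calls, 2 of 22 rising and 2 falling (18.2%). Scap, the escort of the SREBP factors, fell by 0.36 on the log2 scale ± 0.08, from 10.30 to 10.51 without to 9.94 to 10.12 with metformin. Srebf2, the master factor of the pathway, lay at 9.95, 9.09, 9.12 and 9.17 without and at 8.83, 8.86, 8.36 and 8.82 with metformin (-0.61 ± 0.18, adjusted p = 0.029). It was -0.41 without untreated replicate 1, and its adjusted p was 0.061 without treated replicate 3 and 0.0505 without treated replicate 4. The call was also lost with quantile normalization (0.0532) and with only the 8 arrays compared (0.0763). Tm7sf2, a sterol reductase, rose by 0.81 ± 0.21. Pmvk, phosphomevalonate kinase, rose by 0.52 ± 0.16 (adjusted p = 0.0361, split 0.28). The call was lost without untreated replicate 3 or 4, wild type replicate 1 or treated replicate 1, 3 or 4 (adjusted p 0.0508 to 0.109). It was also lost with only the 8 arrays (0.0668). Rising members numbered 5 without untreated replicate 1 and 1 without untreated replicate 3 or 4, wild type replicate 1 or treated replicate 1, 3 or 4. The number that fell was 1 without treated replicate 3 or 4.

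Called genes of amino acid catabolism were all higher in treated livers. Of 32 tested genes of the urea cycle and amino acid breakdown, 15 rose and 0 fell (46.9% called), also 0 lower at an unadjusted p under 0.05 in limma, and the median was 0.31. With quantile normalization 12 rose and 1 fell. Uroc1, urocanase of histidine breakdown, lay at 9.02, 10.22, 8.87 and 9.59 without and at 10.63, 10.70, 10.83 and 10.83 with metformin (1.32 ± 0.24, adjusted p = 0.00285). Glud1, glutamate dehydrogenase, moved from 12.09, 12.16, 11.80 and 11.96 to 12.60, 12.40, 12.53 and 12.48 (0.50 ± 0.10). Bckdhb, a subunit of the branched-chain ketoacid dehydrogenase, rose by 0.56 ± 0.11 to levels of 11.17 to 11.33, above the wild type range of 10.68 to 10.97.

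Of 25 genes of one-carbon and choline metabolism, 11 rose and 2 fell (52% called). Shmt1, the cytosolic serine hydroxymethyltransferase, lay at 9.45, 10.28, 9.13 and 9.61 without and at 10.68, 10.63, 10.74 and 10.81 with metformin (1.10 ± 0.19). Pemt, which makes phosphatidylcholine by methylation, rose by 0.75 ± 0.14, and the folate carrier gene Slc19a1 by 0.60 ± 0.11. Chdh, choline dehydrogenase, was the strongest of the called members by p and went the other way, from 10.48, 10.32, 10.32 and 10.44 to 9.88, 9.63, 9.47 and 9.63 (-0.74 ± 0.09, adjusted p = 0.000387). The counts were 8 to 11 higher and 2 to 3 lower with 1 array left out.

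Carboxylesterases, which cleave drugs and lipid esters, had 8 of 17 tested members rising and 0 falling (47.1% called), with 10 higher and 0 lower at an unadjusted p under 0.05 in limma. Their median was 0.61 beside a median split of -0.10. Ces1b lay at 7.06, 9.40, 7.58 and 9.05 without and at 10.40, 10.97, 11.04 and 10.78 with metformin, a 5.76-fold higher level (2.53 ± 0.44, adjusted p = 0.00227). Ces1d, a triglyceride hydrolase, lay at 8.08, 10.85, 9.07 and 10.96 without and at 12.06 to 12.45 with metformin (2.52 ± 0.50). Ces1e rose by 2.25 ± 0.47 and Ces2e by 1.59 ± 0.35. The genes stand in clusters of near-identical copies, so probe rows may share signal. For each of these 4, untreated replicates 2 and 4 were the highest of the untreated livers and every treated liver was above them.

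**Figure D4:**
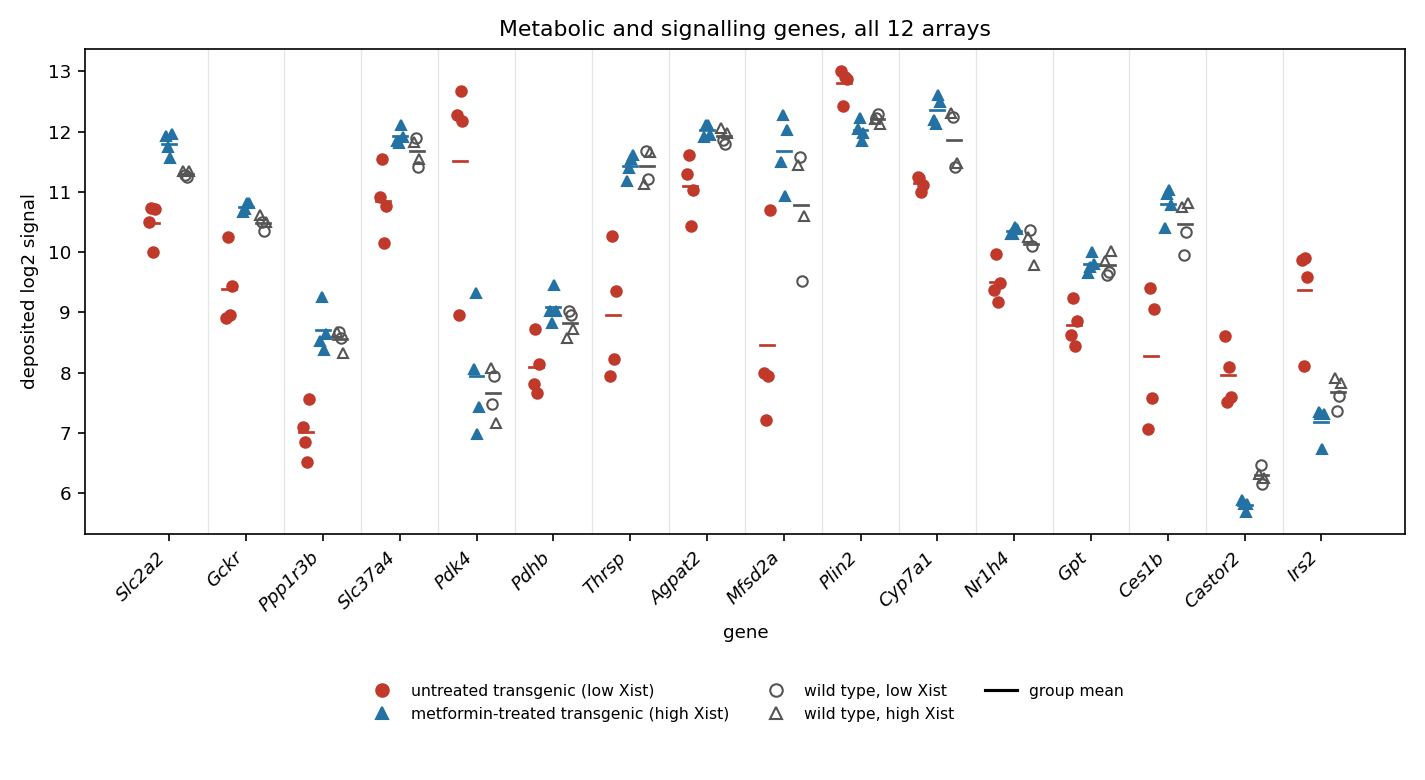
Deposited log2 signals (vertical axis) of 16 metabolic and signalling genes (horizontal axis) with 1 point per array, triangles for high-Xist and circles for low-Xist arrays, and bars at group means. Treated livers stand above all untreated livers for Slc2a2, Gckr and Thrsp and below them for Castor2 and Irs2, while 1 untreated liver at 8.96 lies among the treated ones for Pdk4.

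Complex I, the respiratory complex metformin is known to inhibit, had 9 of 35 tested subunit genes rising and 0 falling (25.7% called, near the 24.7% of all genes), with 11 higher and 3 lower at an unadjusted p under 0.05 in limma. The median was 0.08. Ndufv1, which binds NADH, lay at 10.42, 10.71, 10.36 and 10.52 without and at 11.14, 10.98, 11.06 and 10.95 with metformin (0.53 ± 0.09, adjusted p = 0.00164), above the wild type range of 10.71 to 10.89. Ndufs8 rose by 0.53 ± 0.11, Ndufs1 by 0.43 ± 0.11 and Ndufv3 by 0.35 ± 0.09 (split 0.20 for Ndufv3). Named by p alone, these are subunits of the arm of the complex that receives and passes on electrons. The direction of the list was not stable. Without treated replicate 3, 6 members fell, without treated replicate 1, 1 fell, and without untreated replicate 3 only 5 rose. With quantile normalization 6 rose and 1 fell.

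Clock genes rose more often than they fell. Of 21 tested clock and clock-output genes, 8 rose and 1 fell (42.9% called), with a median of 0.51. Ciart, a repressor of the clock, lay at 6.43, 7.70, 6.71 and 7.71 without and at 9.79, 10.69 and 10.34 in treated replicates 1, 2 and 4 (mean 9.95 with the lower replicate 3), a 7.05-fold higher level (2.82 ± 0.50, adjusted p = 0.00265). Its wild type values also ranged widely, from 7.48 to 9.92. Usp2, a rhythmic deubiquitinase, moved from 7.25, 7.88, 7.72 and 8.99 to 9.67, 10.01, 9.21 and 9.76 (1.70 ± 0.33), and Dbp, an output transcription factor, rose by 1.03 ± 0.22. Nfil3, the repressor that opposes Dbp on the same sites, fell by 1.01 on the log2 scale ± 0.16, from 7.79 to 8.61 without to 7.00 to 7.32 with metformin. The sources used here do not state the hour of sampling, and its part in these values was not tested. The higher count was 5 without untreated replicate 1 or treated replicate 2 or 4, and 3 members fell without untreated replicate 2.

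Immediate early genes, which respond within minutes to growth signals and stress, fell where they were called. Of 27 tested, 11 fell and 0 rose (40.7% called), while 17 were lower and 1 higher at an unadjusted p under 0.05 in limma. The median was -0.52. Myc, the growth factor-induced transcription factor, lay at 10.33, 8.14, 10.66 and 9.95 without and at 6.93, 7.32, 7.07 and 6.98 with metformin, a 6.49-fold lower level (-2.70 ± 0.43, adjusted p = 0.0015). The treated livers were below the wild type range of 7.76 to 8.81. Klf6, a zinc finger factor, moved from 9.48, 7.94, 9.95 and 9.36 to 7.33, 7.32, 7.42 and 7.01 (-1.92 ± 0.32). Fosl2, a subunit of AP-1, lay at 8.58, 7.36, 9.06 and 8.94 without and at 6.93, 6.98, 6.54 and 6.92 with metformin (-1.64 ± 0.29). Ier3 differed by -0.90 ± 0.20. In all 4, untreated replicate 2 was the lowest untreated liver. Falling members numbered 17 without untreated replicate 2, 5 without untreated replicate 3 or treated replicate 1, 6 without untreated replicate 4 and 7 without treated replicate 4. In the other direction, 1 member rose without untreated replicate 2.

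Around Myc and activin, 6 of 24 tested genes fell and 4 rose (41.7% called). Fst, follistatin, the secreted activin inhibitor, lay at 9.38, 7.62, 10.63 and 10.36 without and at 6.78, 6.96, 6.86 and 6.80 with metformin, a 6.26-fold lower level (-2.65 ± 0.49, adjusted p = 0.00317). Wild type livers, at 6.80 to 7.19, lay with the treated ones. Smad7, the inhibitory Smad, moved from 8.55, 7.76, 8.60 and 8.05 to 7.01, 6.80, 7.06 and 6.98 (-1.28 ± 0.19), and Max, the partner of Myc, fell by 1.09 on the log2 scale ± 0.17. Those that rose numbered 2 without untreated replicate 1 or treated replicate 2 or 4 and 1 without untreated replicate 3.

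Among 27 hepatocyte transcription factors, 5 rose and 4 fell (33.3% called). Foxa1 and Gata4 fell while the nuclear receptors Nr1i3 and Nr1h4 rose. Gata4, an early liver factor, lay at 8.48, 8.34, 8.25 and 8.18 without and at 7.73, 7.62, 7.29 and 7.68 with metformin (-0.73 ± 0.11, adjusted p = 0.001), below the wild type range of 7.99 to 8.27. The lower count was 2 without untreated replicate 1 or treated replicate 4.

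Genes of fetal and transformed liver were lower in 8 of 22 tested members and higher in 0 (36.4% called), with 9 lower and 2 higher at an unadjusted p under 0.05 in limma. Krt18, a keratin of the hepatocyte skeleton, lay at 12.17, 11.65, 12.57 and 12.03 without and at 10.52, 10.44, 11.19 and 10.32 with metformin (-1.49 ± 0.21, adjusted p = 0.000735), and its partner Krt8 fell by 0.69 on the log2 scale ± 0.13. Tff3, a trefoil peptide, moved from 9.76, 7.52, 8.15 and 8.55 to 6.34, 6.45, 6.35 and 6.28 (-2.14 ± 0.40, split -0.83). Akr1b8, an aldose reductase-like enzyme, differed by -1.10 ± 0.21. Both keratins are also expressed by normal hepatocytes. In the other direction, 1 member rose without treated replicate 2.

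Cell cycle genes hardly differed, with 1 of 45 tested rising and 1 falling (4.44% called). Tk1, thymidine kinase, moved from 6.97, 7.52, 6.99 and 7.60 to 8.24, 7.96, 8.61 and 8.22 (0.99 ± 0.18), and Cdt1, a replication licensing factor, from 8.39, 7.27, 8.44 and 7.81 to 7.08, 6.63, 7.27 and 6.85 (-1.02 ± 0.23). Those that fell numbered 8 without untreated replicate 2 and 2 without treated replicate 3, and 2 members rose without untreated replicate 4.

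Autophagy and lysosome genes, known in part as FoxO and TFEB-family targets, fell in 14 of 40 tested members and rose in 1 (37.5% called), with a median of -0.20. Wipi1, an early autophagosome protein, lay at 9.42, 9.94, 9.97 and 9.62 without and at 8.15, 7.90, 8.41 and 8.09 with metformin, a 3.03-fold lower level (-1.60 ± 0.14, adjusted p = 9.58e-05). It was just short of a call beyond the split (-1.36 ± 0.24, adjusted p = 0.0599). Mcoln1, the lysosomal calcium channel, moved from 10.85, 11.37, 11.28 and 11.34 to 10.16, 10.23, 10.61 and 10.22 (-0.91 ± 0.13). Tfe3, a master factor of lysosomal genes, differed by -0.90 ± 0.13, and treated livers lay below the wild type range of 8.45 to 8.65. Atg3, a conjugating enzyme of autophagy, was the member that rose (0.75 ± 0.13). The count that fell was 10 to 17 with 1 array left out, and the count that rose was 4 without untreated replicate 2 and 2 without untreated replicate 4 or treated replicate 1.

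Of 37 genes of the unfolded protein and integrated stress responses, 9 fell and 4 rose (35.1% called). The median difference was -0.175 beside a median wild type split of -0.15, and the median beyond the split was 0.07. The sensors and their effector were among those that fell. Eif2ak3, the kinase PERK, lay at 8.68, 8.29, 9.12 and 8.69 without and at 7.78, 7.18, 7.30 and 7.47 with metformin (-1.26 ± 0.19, split -0.43). Ern1, the sensor IRE1, moved from 10.09, 10.01, 10.07 and 9.80 to 9.48, 9.10, 8.88 and 9.37 (-0.78 ± 0.13, split -0.21). Atf4, the transcription factor downstream of PERK, fell by 0.72 on the log2 scale ± 0.16 (split -0.19). Its level in untreated replicate 2, at 7.72, was close to the treated range of 7.41 to 7.66. The count that rose was 2 without untreated replicate 1, 3 or 4 or treated replicate 1 or 2, and 1 without treated replicate 4.

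The arrays carried a liver profile, and some markers of other cells moved with the groups. The 11 measured hepatocyte markers had a mean level of 13.04 to 13.44 in untreated, 13.39 to 13.43 in treated and 13.45 to 13.50 in wild type livers. In whole liver, fewer cells of a type and less RNA per cell cannot be told apart. Of 20 tested Kupffer cell and macrophage markers, 6 fell and 1 rose (35% called), and the mean level of the 21 measured was 8.55 to 9.20 without and 7.91 to 8.69 with metformin. Aif1, a macrophage calcium-binding protein, lay at 6.31, 6.26, 6.61 and 6.48 without and at 5.82, 5.54, 5.53 and 5.65 with metformin (-0.78 ± 0.10). Fcgr1, an Fc receptor, differed by -0.65 ± 0.15 and the lysosomal protein gene Cd68 by -1.03 ± 0.28. Cd68 lost its call without untreated replicate 1 or 3 (adjusted p = 0.0523 and 0.0633), and lay at the threshold with only the 8 arrays (0.05). Slc40a1, the iron exporter, which hepatocytes also make, rose by 0.42 ± 0.11, a call lost without untreated replicate 1 (0.0504) or treated replicate 4 (0.0563), with quantile normalization (0.057) or with only the 8 arrays (0.0529).

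The number of macrophage markers that fell was 11 without untreated replicate 2, 2 without untreated replicate 1 or 3, and 3 without untreated replicate 4 or treated replicate 3 or 4. The one that rose was not called without untreated replicate 1 or treated replicate 4. Treated replicate 3 had the lowest mean of the macrophage markers (7.91) and of 22 endothelial markers (7.83, against 8.63 to 9.03 untreated and 8.67 to 8.88 in the other treated livers). Of the endothelial markers 1 fell and 0 rose (4.55% called), with 3 lower and 0 higher at an unadjusted p under 0.05 in limma. The endothelial count that fell was 2 without untreated replicate 2, and 1 marker rose without treated replicate 3. Cholangiocyte markers had a mean of 5.96 to 6.20 without and 6.04 to 6.14 with metformin. The part of macrophage content in the lower levels of Cd68, Fabp4 or the lysosomal genes was not tested.

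**Figure D5:**
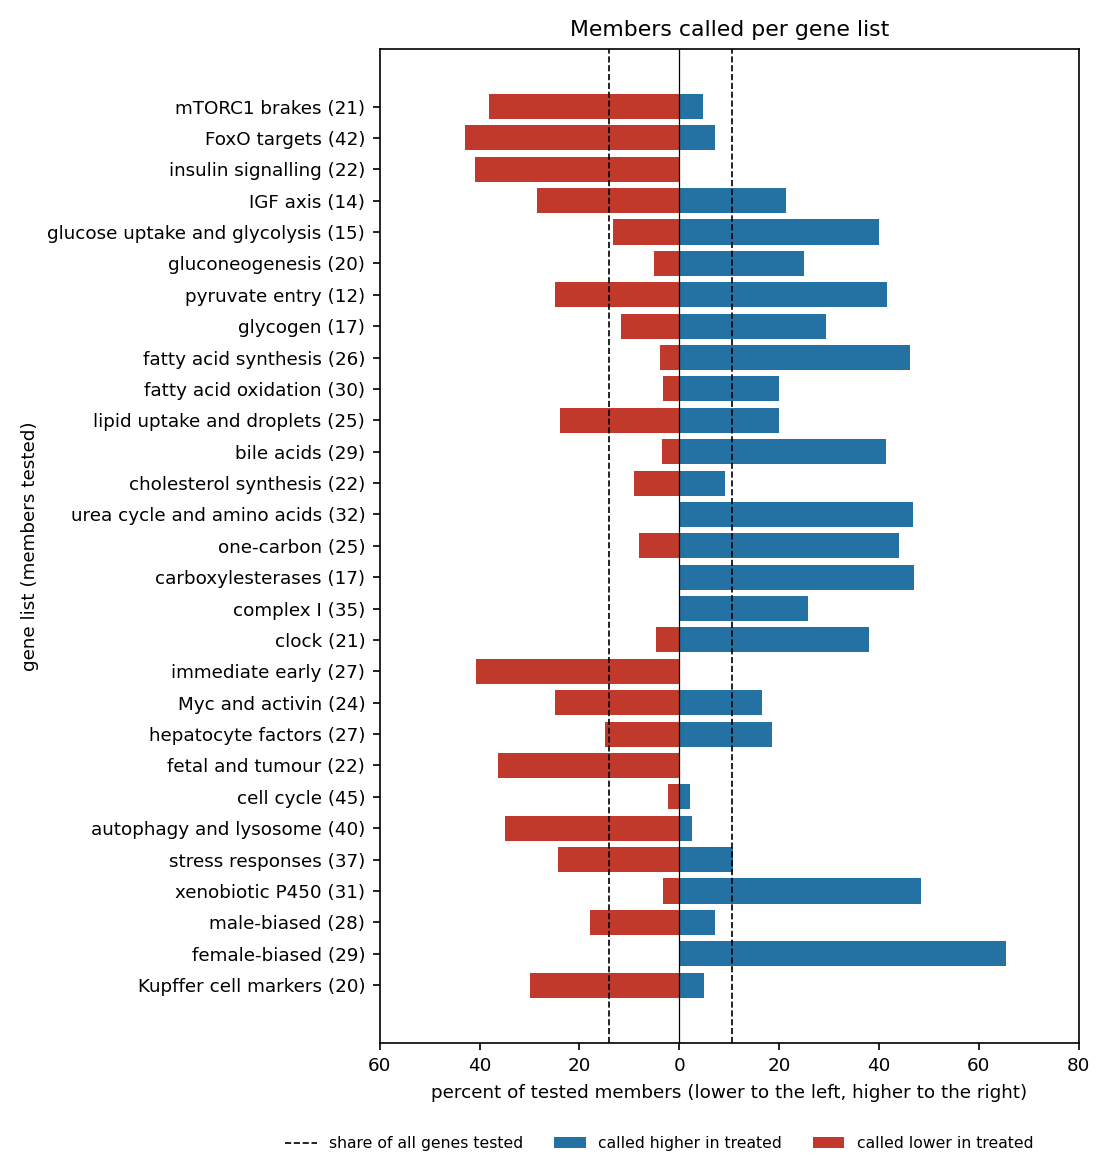
For each gene list (vertical axis, with the number of members tested), the bars show the percent of tested members called higher (right) or lower (left) in treated livers, and dashed lines the same share over all 14953 tested genes (10.6% and 14.1%). The female-biased list reaches 65.5% to the right, while FoxO targets, insulin signalling and immediate early genes extend past the dashed line to the left.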

How the data were processed

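RNA of 12 mouse livers was hybridised to 1 Affymetrix whole-transcript array each, and the titles give 3 groups of 4 biological replicates. The deposited values are log2 signals, as their range shows. Affymetrix Expression Console, with no version, is listed in the submitters' processing notes. The sources used here do not state how the authors summarised and normalized the probes. No further normalization was applied (array medians 5.69 to 5.85). How far a dim gene lies above background cannot be read from such values, and the number of arrays limits the precision.

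Of 35556 table rows, 21789 name 1 gene in the platform annotation. Another 1621 name several and 12146 none, and both kinds were left out. For 999 genes with several rows the row with the highest mean stood for the gene. The 25% of genes with the lowest means were left out. RefSeq gene identifiers matched 21698 rows and changed 0 symbols.

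Group means of all 12 arrays were fitted with limma 3.58.1 in R 4.3.3 (lmFit, eBayes, two-sided, Benjamini-Hochberg over 14953 genes, threshold 0.05). The second contrast used 4 means, with wild type arrays parted at the midpoint of the lowest and highest Xist value. The script was tested on simulated data. Replicate numbers were not treated as pairs: deviations of same-numbered untreated and treated arrays correlated at 0.235, -0.156, -0.0436 and -0.0939.

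The comparison, the gene lists (54) and the naming rule were chosen with earlier results of these data known. The rule names Xist, the Y-linked genes and Foxo3, up to 12 genes in each direction called in both contrasts without overlap, the 8 largest differences in each direction among called genes with a like-signed wild type split of at least 0.5 times the size, and up to 4 called members of a described list by smallest p. Predicted genes, small RNAs and a few multigene families were left out where a gene was chosen by its difference rather than from a list. Lists were described by counts and medians, with no set test. Alternatives were the dim-gene filter, quantile normalization, median centring, the mean of a gene's rows, eBayes settings, array weights and a replicate block. Further ones were only the 8 arrays, 4 means for the first contrast, a continuous sex-chromosome covariate and each array left out.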

Additional observations from a re-analysis of the deposited data

Results flagged for a closer look

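Within groups of 4 arrays, a single array was far from the other 3 in 20 of 278 gene-and-group combinations, by the gap to the nearest array divided by the range of the group (Dixon's test at the 95% level). About 1 in 20 groups passes this by chance. Treated replicate 3 was the distant array for Irs2 (level 6.73, ratio 0.935), Srebf2 (8.36, 0.92), Cux2 (7.08, 0.894), Eif4ebp1 (9.93, 0.893), Cyp2a22 (10.82, 0.873), Fosl2 (6.54, 0.864), Nr1i3 (10.48, 0.863), Foxa1 (7.90, 0.848), Mcoln1 (10.61, 0.844) and Gstp1 (12.40, 0.841). Treated replicate 1 was distant for Hamp2 (11.94, 0.909), Cyp2d26 (13.33, 0.875) and Rbbp9 (9.48, 0.833), treated replicate 2 for Ephx1 (11.67, 0.857) and treated replicate 4 for Fbp1 (13.47, 1.0), where the other 3 arrays were all at 13.45.

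Untreated replicate 2 was the distant array for Pdk4 (8.96, 0.865), Atf4 (7.72, 0.833) and Dld (9.88, 0.83), each time on the side of the treated livers. Untreated replicate 1 was distant for Srebf2 (9.95, 0.907) and untreated replicate 4 for Abcg5 (10.20, 0.923).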

How the results depend on the processing

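The count of 3695 genes called between treated and untreated livers was 2354 with only the 8 arrays compared, 6428 with array weights, and 2419 to 4828 with 1 array left out. Quantile normalization gave 1833 higher and 1795 lower and median centring 1763 and 1914, against 1583 and 2112 as reported, which moves the share of higher calls from 42.8% to 50.5% and 47.9%. The replicate block gave 3349, and 4 means with the wild type arrays parted by Xist gave 3425. The 19 calls beyond the wild type split became 34 with no filter on dim genes, 5 with trend and robust eBayes, 3095 with array weights, 2 with the replicate block, 82 with the continuous covariate, and 0 to 1334 with 1 array left out. Foxo3, which was not called, changed sign with quantile normalization (0.063), median centring (0.014) and array weights (0.068), and ran from -0.12 without treated replicate 2 to 0.15 without treated replicate 3, being 0.036 without untreated replicate 4. Of the recomputed differences of the 139 named genes, 2984 kept direction and side of the threshold, 58 lost the call and 2 gained one. Of the values beyond the split, 195 kept their call and 204 lost it. The replicate block ended 1 call among the named genes, Pmvk (adjusted p = 0.0576). Of the list counts, 2043 stayed within 1.5 times the reported count and 331 did not. The causes were not tested.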

Other observations

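In the acute phase, complement, coagulation and serpin lists, more genes rose than fell in treated livers. Of 39 tested acute phase and complement genes, 9 rose and 2 fell (28.2% called, beside 24.7% of all tested genes), and of 33 coagulation and serpin genes 9 rose and 2 fell (33.3%). Without untreated replicate 2, 18 acute phase and complement genes rose. The coagulation count that rose was 4 without untreated replicate 3 and 5 without untreated replicate 1 or treated replicate 4. The coagulation count that fell was 3 without untreated replicate 2 and 2 without untreated replicate 4 or treated replicate 2, and was 1 without any other single array. Conjugating enzymes of the UDP-glucuronosyltransferase and sulfotransferase families had 4 of 20 members rising and 0 falling (20%, below the 24.7% of all tested genes). Of the 4 that rose, 2 had a like-signed wild type split of at least 0.5 times the difference. At an unadjusted p under 0.05 in limma, 10 of these enzymes were higher and 0 lower, and 12 rose without untreated replicate 2. Genes of zonation did not move together. Of 19 periportal genes 8 rose and 1 fell (47.4%), and of 23 pericentral genes 4 rose and 3 fell (30.4%). The periportal count that rose was 5 without untreated replicate 3, and 2 fell without untreated replicate 4 or wild type replicate 1. The pericentral count that rose was 7 without untreated replicate 2, and 2 without untreated replicate 3 or any 1 treated replicate. The pericentral count that fell was 3 without treated replicate 3, 2 without untreated replicate 2 or wild type replicate 2, 3 or 4, and 1 without any other single array.

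Other lists gave these counts. Of 27 cell cycle arrest and DNA repair genes 10 fell and 1 rose (40.7%), with 6 lower without untreated replicate 3 or treated replicate 1 or 4. Of 32 genes of the oxidative stress response and glutathione transferases 8 fell and 4 rose (37.5%). There 5 fell without untreated replicate 1, 3 or 4 or treated replicate 1 or 4, and 12 without untreated replicate 2. The count that rose was 2 without untreated replicate 1 or 3 or treated replicate 2 or 3, and 1 without treated replicate 4. Of 14 growth hormone and STAT5 genes 5 fell and 2 rose (50%), with 3 lower without untreated replicate 3 and 1 higher without untreated replicate 1 or 3 or treated replicate 1, 2 or 4. Of 20 heat shock genes 4 rose and 3 fell (35%). There 2 rose without untreated replicate 3 or treated replicate 2 or 4, and 5 fell without treated replicate 3. Of 27 interferon genes 4 fell and 3 rose (25.9%), and the count that rose was 6 without untreated replicate 2, 0 without treated replicate 1 or 2 and 1 without treated replicate 4, while 2 fell without untreated replicate 3 or treated replicate 2. Of 15 hepatokine and receptor genes 3 rose and 3 fell (40%), and the count that fell was 5 without untreated replicate 2 and 1 without untreated replicate 4 or treated replicate 1 or 4.

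Respiratory complexes II to V had 4 of 32 tested genes rising and 0 falling (12.5%), with 6 higher and 1 lower at an unadjusted p under 0.05 in limma. There 6 fell without treated replicate 3, 7 rose without untreated replicate 2 and 2 rose without untreated replicate 3 or 4. Of 8 genes known to escape X inactivation, 3 rose and 0 fell (37.5%), with 5 higher and 0 lower unadjusted. Without treated replicate 3, 5 rose, and without untreated replicate 2, 1 fell. Shares called varied among markers of other cells, beside 24.7% of all tested genes. Stellate and matrix markers had 4 of 19 falling (21.1%), 2 without untreated replicate 3 or treated replicate 1, 2 or 4. Lymphoid and antigen-presenting markers had 1 of 17 falling (5.88%). Erythroid markers had 2 of 4 rising (50%), 1 without untreated replicate 1 or 3 or treated replicate 4. Genes listed for adipocytes had 2 of 5 falling (40%), 2 also without untreated replicate 2 and 1 without any other single array. Their count that rose was 2 without untreated replicate 4 and 1 without untreated replicate 2. That list includes an adiponectin receptor gene and is not specific to fat cells.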
